A study of Mus musculus with 15 samples.

Results

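Subunits of the mitochondrial respiratory chain that are encoded in the nucleus were followed in mouse hearts by RNA-sequencing. Members were all symbols of the counts table beginning with Nduf and a letter a, b, c, s or v before a digit, with Uqcr, with Cox4 to Cox8 or with Atp5, and the Sdha to Sdhd genes. A symbol was kept when at least 3 libraries held at least 10 counts of it, which left 86 of the 87 matching symbols among 17447 genes. Complex I accounted for 41 members, complex II for 4, complex III for 8, complex IV for 16 and complex V for 17. All 86 passed the filter on low counts and were among the genes tested. All mice were males of the C57BL/6J strain, 6 to 8 weeks old when used, and the hearts were taken 18 weeks after surgery. WTSHAM mice were wild type and sham-operated. WTCKD mice were wild type with chronic kidney disease (CKD) from subtotal nephrectomy and received a vector by tail vein in week 2, whereas WTCKD + RNLS mice received AAV9-cTnT-RNLS, a virus that expresses renalase from the cardiac troponin T promoter of cardiomyocytes. KOCKD and KOCKD + RNLS mice carried the rnls-/- genotype, made with nucleases directed at exon 4 of the gene, and had CKD with the vector or the virus, respectively. Each group held 3 libraries of 10480788 to 13424078 counts. No sham-operated knockout was sequenced here, and no vector is stated for WTSHAM, so that CKD and vector cannot be told apart in WTCKD. Rnls was not analysed here, so that genotype and treatment rest on the labels.

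Complex I oxidises NADH and passes electrons through a flavin and iron-sulfur clusters to ubiquinone, and complex II does so from succinate. Complex III hands the electrons to cytochrome c, and complex IV reduces oxygen with them. Complex V, the ATP synthase, uses the proton gradient that complexes I, III and IV build. The heart depends on this chain for most of its ATP, and cardiomyocytes are packed with mitochondria. Apart from complex II, each complex also contains subunits encoded in mitochondrial DNA. Those transcripts were not analysed here, nor were Atp5s and Atp5sl.

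Levels between genes were compared as FPKM, counts per gene length and library size, with library sizes scaled by the trimmed mean of M values (TMM). The median member had a mean level of 478 over the 15 libraries, against 5.36 for all genes tested. Atp5b, the catalytic beta subunit of ATP synthase, was the most abundant member, with a mean level of 3970.3, and its alpha partner Atp5a1 reached 2767. The most abundant member of complex IV was Cox6a2, the muscle isoform of subunit 6a, at 2889.6. In complex I the highest level was that of Ndufa4 (1426), whose protein is today assigned to complex IV despite its name. Uqcrh, the hinge protein of complex III, reached 1239.8, and Sdha, the flavoprotein of complex II, 791. At the other end, 5 members had mean levels under 20, namely Ndufb4c (1.42), Cox6b2 (2.32), Ndufb4b (4.70), Cox4i2 (11.4) and Ndufa4l2 (19.3). Ndufb4b, Ndufb4c and Ndufs6b resemble Ndufb4 and Ndufs6, and how the counting divided reads between such copies was not tested, so their values are uncertain. The GENCODE annotation of the mm9 assembly lists Ndufb4c, under the symbol Gm3244, as a pseudogene. No position was found there for Ndufb4b or Ndufs6b.

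Most of these genes are short. Their median length was 752 nt, against 3631 nt for all genes tested, and 53 of the 86 (61.6%) were at most 1000 nt long, a length that 4.56% of all genes did not exceed. Complex IV had the shortest members, with a median of 587.5 nt, and complex II the longest, with 1290 nt. Lengths ran from 320 nt in Atp5k to 3153 nt in Cox5a. Length mattered because the libraries differed in how counts depended on it. For each library the log2 CPM (counts scaled to library size) of every gene was set against that gene's mean over the 15 libraries, and the slope of these deviations on log2 gene length was taken. A negative slope means relatively more counts on short genes.

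In KOCKD the slopes were -0.075, -0.12 and -0.093 in replicates 1 to 3, and in KOCKD + RNLS they were 0.071, 0.085 and 0.062. These 2 groups lay on opposite sides of 0 and did not overlap. Slopes in WTSHAM were -0.011, 0.036 and 0.080, and in WTCKD -0.045, -0.00086 and 0.0028. WTCKD + RNLS was divided, with 0.042, -0.10 and 0.069, so that replicate 2 stood apart from replicates 1 and 3. The median deviation of the 86 members was 0.056, 0.29 and 0.21 in KOCKD and -0.16, -0.18 and -0.13 in KOCKD + RNLS. In WTCKD + RNLS it was -0.0075, 0.36 and -0.066, and replicate 2 had the highest value of the 15 libraries. WTCKD libraries had 0.036, -0.12 and 0.065 and WTSHAM libraries -0.036, -0.12 and -0.15. Other genes of at most 1000 nt deviated likewise, with medians of 0.095, 0.24 and 0.24 in KOCKD and -0.17, -0.19 and -0.16 in KOCKD + RNLS. After a smooth trend on length was removed from each library, the median deviation of the members lay between -0.090 and 0.10 in the 15 libraries.

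**Figure D1:**
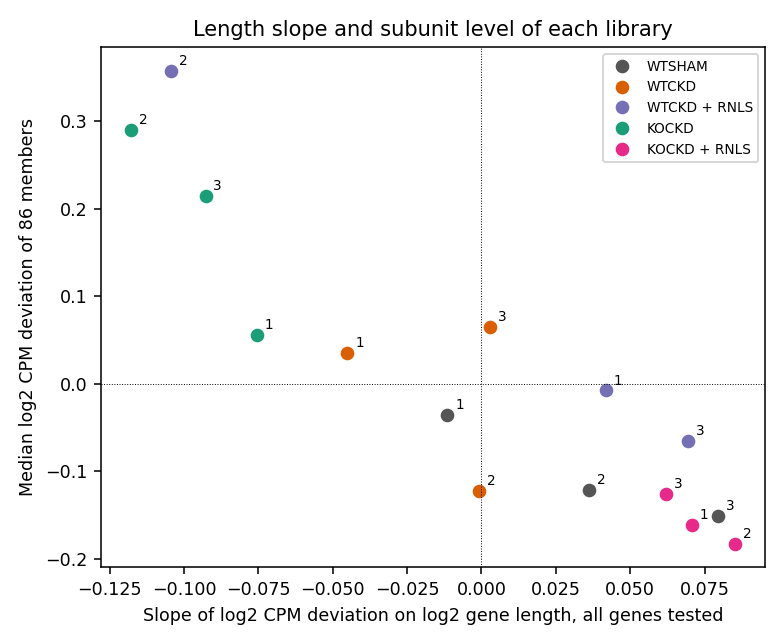
Each point is 1 of the 15 libraries, labelled with its replicate number and coloured by group; the x axis is the slope of log2 CPM deviations on log2 gene length over all genes tested and the y axis is the median log2 CPM deviation of the 86 members. The 3 KOCKD libraries and WTCKD + RNLS replicate 2 have the 4 lowest slopes, and the 3 KOCKD + RNLS libraries are among those at the lower right.

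Together the members took 13.2% to 15.5% of the summed level per length of a library. By group this share was 13.5 ± 0.247% in WTSHAM, 13.9 ± 0.454% in WTCKD, 14.4 ± 0.903% in WTCKD + RNLS, 15 ± 0.664% in KOCKD and 13.4 ± 0.225% in KOCKD + RNLS (mean ± SD, n = 3). The summed level of complex I was 16661, 19516 and 18523 in KOCKD and 14263, 13990.0 and 14645 in KOCKD + RNLS. For complex II the sums were 2549, 2838 and 2613 and 2355, 2399 and 2385. Both complexes were higher in each KOCKD library than in any KOCKD + RNLS library. Complex III summed to 6701, 7781 and 7286 against 5883, 5806 and 6024. In complex IV the sums were 16444, 19702 and 18518 against 14211, 13864 and 14888, and in complex V 19841, 22738 and 21387 against 17374, 17323 and 18004. None of these pairs of groups overlapped. WTSHAM libraries, at 17952, 17161 and 17201 in complex V, lay close to those of KOCKD + RNLS. The sums are not corrected for the length trend of each library. After removal of that trend, the median deviation of the members was -0.033, 0.047 and -0.018 in KOCKD. In KOCKD + RNLS it was -0.022, -0.014 and 0.0053, so that these 2 groups then overlapped. Since bulk heart RNA was sequenced, fewer cardiomyocytes and less RNA per cardiomyocyte cannot be told apart in any of these values.

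**Figure D2:**
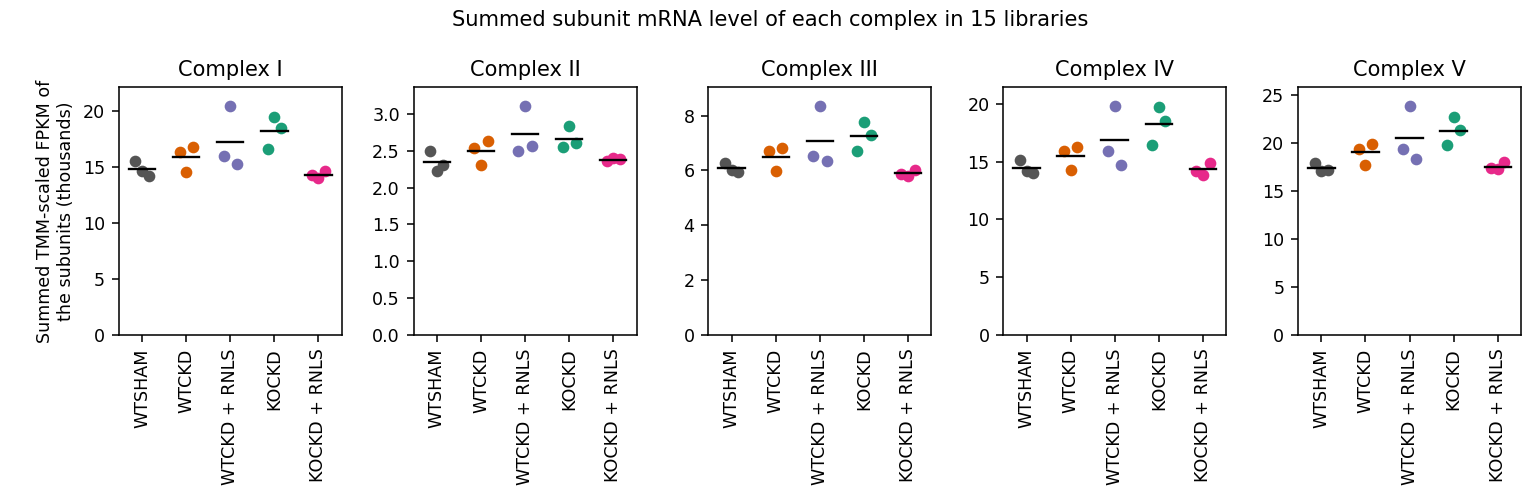
Summed TMM-scaled FPKM (y axis in 1000, from 0) of the members of each complex, with 1 point for each of the 3 libraries of a group and a bar at the group mean. In all 5 complexes the KOCKD points lie above the KOCKD + RNLS points, and WTCKD + RNLS replicate 2 lies above the other libraries of its group. The sums are not corrected for the length trend of each library.

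WTCKD was compared with WTSHAM to see what CKD with the vector did to the chain. Atp5b had levels of 3453, 3491 and 3542 in WTSHAM and 4097, 3806 and 4158 in WTCKD. The groups did not overlap, yet the difference missed the threshold (log2 fold change 0.20, SE 0.076, adjusted p = 0.176). Ndufa12, an accessory subunit of complex I named after its values were seen, was measured at 292, 266 and 247 and 335, 317 and 360.5, again without overlap (log2 fold change 0.33, SE 0.10, adjusted p = 0.105). With p from the quasi-likelihood test of edgeR, adjusted by Benjamini-Hochberg over all genes, 0 of the 86 members were higher or lower at an adjusted p under 0.05, against 0.599% of all genes higher and 1.7% lower. DESeq2 called 1 member higher. At an unadjusted p under 0.05, 7 members were higher, 5 of them in complex I, and 0 were lower, while 7.36% of all genes were higher. With the study's minimum fold change in addition, 2 members were higher, beside 3.66% of all genes. The median log2 fold change was 0.087 in complex I, 0.10 in complex II, 0.065 in complex III, 0.11 in complex IV and 0.12 in complex V, and -0.0053 over all genes. Other genes of at most 600 nt had a median of 0.11, and members of that length 0.068. In the 3 classes of longer members the order was the other way, with 0.11, 0.11 and 0.071 for members and 0.066, 0.063 and 0.025 for other genes. When the smooth length trend was entered into the test as gene length offsets, the medians became 0.022, 0.035, 0.0044, 0.040 and 0.061 in complexes I to V. Ndufa12 was then called higher, with a log2 fold change of 0.27 (SE 0.062, adjusted p = 0.0305), as 1 of 86 members, beside 0.868% of all genes.

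Cardiac expression of RNLS in wild-type mice with CKD was examined by setting WTCKD + RNLS against WTCKD. Cox4i2, the oxygen-regulated isoform of complex IV subunit 4, was measured at 10.9, 11.4 and 14.9 in WTCKD and 6.89, 7.79 and 8.43 in WTCKD + RNLS. All treated libraries were below all vector libraries, and the adjusted p stood just outside the threshold (log2 fold change -0.68, SE 0.19, adjusted p = 0.0538). DESeq2 gave an adjusted p of 0.0371. Its partner Cox4i1 was at 2861, 2502 and 2933 and 2840.3, 3363 and 2690.5, and these groups overlapped (log2 fold change 0.10, SE 0.088, adjusted p = 0.578). Sdha was at 770.5, 733 and 799 in WTCKD and 817, 881 and 848 in WTCKD + RNLS. Every treated library was above every vector library, but the test did not pass (log2 fold change 0.14, SE 0.064, adjusted p = 0.218).

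In this comparison 0 of the 86 members passed an adjusted p under 0.05 with edgeR in either direction, while 2.19% of all genes were higher and 2.28% lower. DESeq2 called 1 member lower, which was Cox4i2. At an unadjusted p under 0.05 there were 4 members, 2 higher and 2 lower, beside 20.2% of all genes in either direction. By the study's threshold 1 member was lower, against 8.09% of all genes. Median log2 fold changes were 0.12, 0.14, 0.12, 0.11 and 0.12 in complexes I to V, and 80 of the 86 members had a value above 0. Without length offsets the medians depended on replicate 2 of WTCKD + RNLS. Without it the median of the members was -0.044, where with all libraries it was 0.12. With gene length offsets and all libraries it was 0.085, and 77 of the 86 members were above 0, with 0 called. After removal of the length trend, the median deviation of the members was 0.063, 0.10 and 0.020 in WTCKD + RNLS. In WTCKD it was -0.020, -0.090 and 0.058, so that the groups overlapped. Without offsets, other genes of at most 600 nt had a median of -0.0088, and members of that length 0.12.

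The same virus was then followed in knockout mice. Relative to KOCKD, 49 of the 86 members fell in KOCKD + RNLS at an adjusted p under 0.05 and 0 rose, beside 7.04% of all genes lower and 9.05% higher. The calls covered 22 of 41 members of complex I, 0 of 4 of complex II, 6 of 8 of complex III, 10 of 16 of complex IV and 11 of 17 of complex V. The median of all 86 members on the log2 scale was -0.35, a change of -21.6%, while the median of all genes was -0.0094. Values ran from -1.07 to 0.084, and 85 of the 86 were below 0. For 78 members the groups did not overlap, as was so for 40.6% of all genes. At an unadjusted p under 0.05, 73 members were lower (15.3% of all genes), and 51 met the study's threshold (10.1% of all genes).

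These falls were graded by gene length, and other genes were graded alike. Of 32 members of at most 600 nt, 24 were lower (75%), as were 50% of 120 other genes of that length. From 601 to 1000 nt the shares were 66.7% of 21 members and 32.6% of 420 other genes. Above 1000 and up to 2000 nt they were 38.5% of 26 and 14.8% of 2069, and from 2001 to 4000 nt 14.3% of 7 and 5.84% of 4503. No member was longer than 4000 nt. The median log2 fold changes of the members in these 4 classes were -0.38, -0.35, -0.29 and -0.12. Those of the other genes were -0.45, -0.34, -0.22 and -0.060, and 0.17 above 4000 nt. Among genes of at most 1000 nt with a mean log2 CPM over 6, 38 of 48 members and 82 of 144 other genes were lower, with medians of -0.37 and -0.36. Across the 86 members, Spearman's rho between length and log2 fold change was 0.55, and across all genes tested 0.52. Genes of 1 library share its length trend and are not independent.

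With the length trend of each library entered as an offset, 1 of the 86 members was lower and 0 were higher, beside 2.7% of all genes lower. The medians were then -0.012, -0.0097, 0.034, -0.019 and -0.043 in complexes I to V, with 41 members above 0 and 45 below. The count was sensitive to single libraries as well. Without KOCKD + RNLS replicate 1, 2 or 3 it was 19, 7 or 16. Without KOCKD replicate 1, 2 or 3 it was 48, 9 or 13, and the median log2 fold change stayed between -0.41 and -0.30 in these 6 fits. Calls over all genes fell as well, from 917 lower to 391, 278 and 394 without a KOCKD + RNLS library and to 650, 282 and 465 without a KOCKD library.

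**Figure D3:**
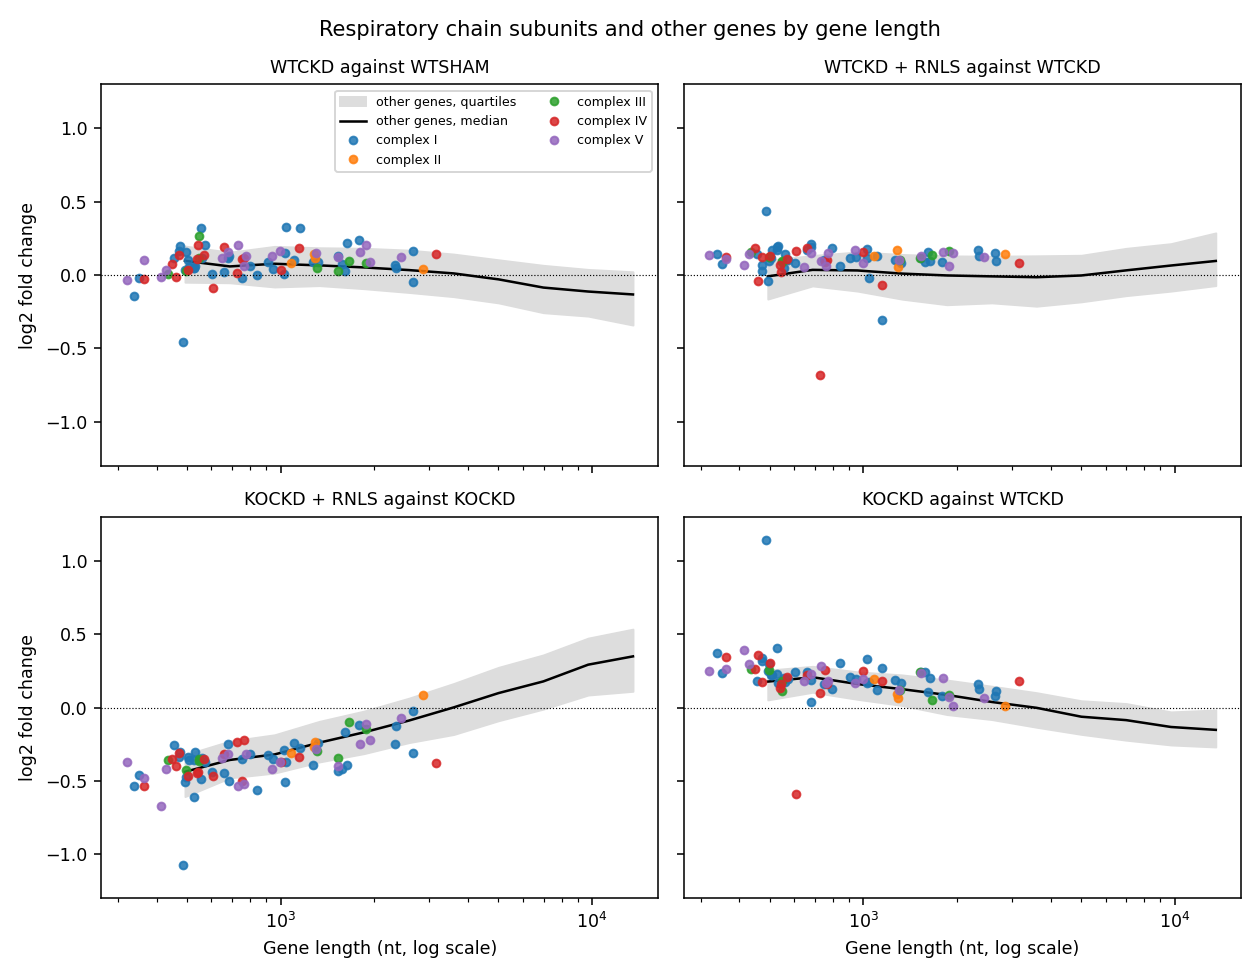
Log2 fold change (y axis) against gene length in nt (x axis, log scale) in 4 comparisons; coloured points are the 86 members by complex, the black line is the median of the other genes tested in length bins of at least 20 genes, and the grey band runs between their quartiles. In KOCKD + RNLS against KOCKD both the members and the line rise with length, from medians of -0.38 and -0.45 in genes of at most 600 nt.

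In complex I, the accessory subunit Ndufc1 was measured at 237, 296 and 302 in KOCKD and 185, 174 and 188 in KOCKD + RNLS. Each treated library was below each vector library (log2 fold change -0.61, SE 0.13, adjusted p = 0.00608), but with length offsets the value was -0.18 (SE 0.063, adjusted p = 0.0999). Ndufb2, another accessory subunit, was at 138, 160.0 and 174 and 105, 103 and 111 (log2 fold change -0.56, SE 0.11, adjusted p = 0.00556). With length offsets it had -0.23 (SE 0.070, adjusted p = 0.0654). Ndufa4 was at 1502, 1908 and 1771 in KOCKD and 1228, 1204 and 1299.6 in KOCKD + RNLS (log2 fold change -0.47, SE 0.11, adjusted p = 0.00935). Its 2 groups were separate, and offsets brought the log2 fold change to -0.032 (SE 0.059, adjusted p = 0.801). The shortest gene of the complex, Ndufb1 (339 nt), changed by -0.53 (SE 0.13, adjusted p = 0.0136). The longest of the complex, Ndufa11 (2661 nt), had -0.31 and did not pass (SE 0.11, adjusted p = 0.0711).

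Complex II, the only complex that also belongs to the citric acid cycle, had 0 of 4 genes called by edgeR, and 3 of 4 had an unadjusted p under 0.05. DESeq2 called Sdhb alone, with an adjusted p of 0.0343. Sdha was at 772, 792 and 756 in KOCKD and 819, 820.1 and 820.1 in KOCKD + RNLS, the only log2 fold change above 0 among the 86 members (log2 fold change 0.084, SE 0.064, adjusted p = 0.400). Its groups did not overlap, though the difference was small. Sdhb, the iron-sulfur subunit, was at 810.0, 985 and 867 and 697, 729 and 719 (log2 fold change -0.31, SE 0.11, adjusted p = 0.0559). Sdhc and Sdhd anchor the complex in the membrane. Sdhc was at 472, 491 and 500.3 and 407, 421 and 418 (log2 fold change -0.23, SE 0.098, adjusted p = 0.119), and Sdhd at 494, 569.8 and 490.4 and 432, 429 and 427 (log2 fold change -0.27, SE 0.11, adjusted p = 0.110). Sdha was the longest of the 4, with 2859 nt, the others measuring 1079 to 1295 nt. After length offsets the 4 values lay between -0.030 and 0.14.

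In complex III, Uqcrh was at 1252, 1466 and 1368 in KOCKD and 1081, 1047 and 1077 in KOCKD + RNLS, with no overlap (log2 fold change -0.35, SE 0.10, adjusted p = 0.0309). With length offsets its log2 fold change turned to 0.069 (SE 0.055, adjusted p = 0.503). The small subunit Uqcr11 (436 nt) was at 894, 1075 and 971 and 752, 757 and 790.1 (log2 fold change -0.35, SE 0.11, adjusted p = 0.0335). It too turned, to 0.11 (SE 0.072, adjusted p = 0.397). The core protein Uqcrc2 (1882 nt) was at 662, 748 and 684 and 628, 625 and 635, and did not pass (log2 fold change -0.15, SE 0.082, adjusted p = 0.229). Across the 8 members the values ran from -0.43 to -0.096.

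Complex IV contains pairs of isoforms, and Cox6a2, Cox7a1 and Cox8b are those of heart and skeletal muscle. Cox8b was at 1123, 1413 and 1263 in KOCKD and 864, 861 and 895 in KOCKD + RNLS, without overlap (log2 fold change -0.54, SE 0.12, adjusted p = 0.00795). With length offsets it had -0.033 (SE 0.081, adjusted p = 0.851). Cox7a1 was at 1375, 1528 and 1430.4 and 1096, 1017 and 1180.0 (log2 fold change -0.40, SE 0.11, adjusted p = 0.0259), and with offsets at a log2 fold change of 0.055 (SE 0.074, adjusted p = 0.714). Cox6a2 was at 2841, 3750.4 and 3291 and 2576, 2522 and 2859, and these groups overlapped (log2 fold change -0.31, SE 0.11, adjusted p = 0.0719). The widely expressed partners Cox6a1, Cox7a2 and Cox8a were all called lower, with log2 fold changes of -0.44, -0.50 and -0.44 (SE 0.096, 0.11 and 0.12). Cox4i1 and Cox6b1 did not pass, with -0.22 and -0.31 (adjusted p = 0.0947 and 0.0707). Cox7a2l, which takes part in joining complexes III and IV into supercomplexes, was at 224, 255 and 234 and 184, 183 and 198 and stood just outside the threshold (log2 fold change -0.34, SE 0.11, adjusted p = 0.0524).

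Cox5a was the 1 member that was lower with and without length offsets. It is the longest member, with 3153 nt in the annotation, and its levels were 246, 274 and 271 in KOCKD and 199, 201 and 208 in KOCKD + RNLS. Each treated library was below each vector library (log2 fold change -0.38, SE 0.099, adjusted p = 0.0193), and with offsets the log2 fold change was -0.34 (SE 0.094, adjusted p = 0.0452). The offset rests on the annotated length, and the length of the Cox5a transcripts present was not tested. Without offsets, members of 2001 to 4000 nt had a median of -0.12 and members of at most 600 nt one of -0.38. When single libraries of the 2 groups were left out, without offsets, Cox5a passed in 1 of 6 fits, with log2 fold changes from -0.43 to -0.34. Other groups had levels of 211 ± 6.04 in WTSHAM, 233 ± 15.9 in WTCKD and 247 ± 43.0 in WTCKD + RNLS (mean ± SD, n = 3).

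Complex V held the largest fall among the members past the threshold. Atp5e, the epsilon subunit of the central stalk, was at 649, 729.7 and 801 in KOCKD and 438, 477 and 452 in KOCKD + RNLS. The groups were far apart (log2 fold change -0.67, SE 0.11, adjusted p = 0.00228), and the call held in 6 of 6 fits without 1 library. With length offsets its log2 fold change was -0.20 (SE 0.062, adjusted p = 0.0764). The small proteolipid Atp5mpl was at 291, 354 and 356 and 228, 232 and 231 (log2 fold change -0.54, SE 0.13, adjusted p = 0.0135), and with offsets had -0.17 (SE 0.075, adjusted p = 0.185). Atp5k, the shortest member with 320 nt, was at 1001.3, 1162 and 1147 and 853, 854 and 859, outside the threshold (log2 fold change -0.37, SE 0.12, adjusted p = 0.0530). The catalytic pair had the smallest differences in the complex. Atp5b was at 4064, 4569 and 4051 in KOCKD and 3860.4, 3821 and 4052 in KOCKD + RNLS, with overlap (log2 fold change -0.11, SE 0.076, adjusted p = 0.331), and Atp5a1 at 2810.3, 3057 and 2721 and 2662, 2707 and 2821, also with overlap (log2 fold change -0.069, SE 0.068, adjusted p = 0.526). These 2 genes measured 1879 and 2432 nt.

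KOCKD was set against WTCKD to compare the genotypes under the vector. Over the members the median of the log2 fold changes was 0.20, and by complex 0.20, 0.079, 0.15, 0.20 and 0.20, with 85 of 86 above 0. The exception was Cox6b2 (log2 fold change -0.59, SE 0.37, adjusted p = 0.574), whose levels overlapped between the groups and which had -0.78 (SE 0.35, adjusted p = 0.634) with length offsets. By edgeR's test 0 members passed in either direction, as did 0 of all genes (0% higher and 0% lower), and the lowest adjusted p of a member was 0.444. DESeq2 called 0 members. At an unadjusted p under 0.05, 27 members were higher, against 4.48% of all genes, and 7 met the study's threshold, against 1.94%. Atp5e was at 554 ± 25.8 in WTCKD and 726 ± 76.2 in KOCKD (mean ± SD, n = 3), a log2 fold change of 0.39 (SE 0.11, adjusted p = 0.444). Shortness went with the size of the difference here too. Members of at most 600 nt had a median of 0.25 and other genes of that length 0.19, while from 2001 to 4000 nt the medians were 0.11 and 0.026. With length offsets the median of the members was 0.018. This comparison uses the same WTCKD libraries as the 2 wild-type comparisons and the same KOCKD libraries as the treatment of the knockouts.

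Whether RNLS acted differently in the 2 genotypes was tested as the difference of its effects, the effect in KOCKD minus that in WTCKD. With edgeR 0 of the 86 members passed an adjusted p under 0.05, as did 0 of all genes (0% higher and 0% lower), and the lowest adjusted p of a member was 0.105. DESeq2 called 39 members lower, beside 234 lower and 140 higher of all 17147 genes it fitted. At an unadjusted p under 0.05, 71 members were lower (9.88% of all genes), and 69 of them met the study's fold change (8.43% of all genes). The median difference on the log2 scale was -0.48, -0.36, -0.45, -0.48 and -0.47 in complexes I to V, and over all genes 0.013. Without WTCKD + RNLS replicate 2 the median of the members was -0.30, and with length offsets -0.081. For Atp5e the difference was -0.74 (SE 0.15, adjusted p = 0.105), and for Cox4i2 it was 0.45 (SE 0.27, adjusted p = 0.398), which grew to 0.84 (SE 0.28, adjusted p = 0.284) with length offsets.

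The balance of isoforms was compared within libraries, as the share of one isoform in the summed level of the pair. Cox6a2 made up 94.7% ± 0.0862 of the Cox6a pair in WTSHAM, 95% ± 0.239 in WTCKD, 95.3% ± 0.276 in WTCKD + RNLS, 95.3% ± 0.192 in KOCKD and 95.7% ± 0.231 in KOCKD + RNLS (mean ± SD, n = 3). The muscle isoform thus prevailed in every group. Cox8b made up 85.4% ± 0.400 of the Cox8 pair in WTSHAM, 83.2% ± 2.08 in WTCKD, 84.2% ± 0.927 in WTCKD + RNLS, 85% ± 0.862 in KOCKD and 84.1% ± 0.876 in KOCKD + RNLS. For Cox7a1 the shares were 76.2% ± 0.396 in WTSHAM, 74.7% ± 0.732 in WTCKD, 72.8% ± 0.868 in WTCKD + RNLS, 76.2% ± 2.32 in KOCKD and 77.3% ± 1.38 in KOCKD + RNLS. The 3 wild-type ranges did not overlap, WTSHAM running from 75.8% to 76.4%, WTCKD from 73.8% to 75.2% and WTCKD + RNLS from 72.0% to 73.7%. In the knockouts the mean was higher with the virus, the ranges overlapped each other and that of WTSHAM, and KOCKD also overlapped WTCKD, running from 74.0% to 78.6% and KOCKD + RNLS from 76.4% to 78.9%. These shares were not tested. Cox4i2 made up 0.446% ± 0.0621 of the Cox4 pair in WTCKD and 0.262% ± 0.0440 in WTCKD + RNLS, and 0.427% ± 0.0704 and 0.426% ± 0.0398 in KOCKD and KOCKD + RNLS. Cox6b2, an isoform known from testis, made up at most 0.193% of its pair in any library, with 0.131% ± 0.0183 in WTCKD and 0.0787% ± 0.0170 in KOCKD, without overlap.

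Genes that work with the chain were counted in the same fits. For comparison, 7.04% of all genes were lower in KOCKD + RNLS against KOCKD, and 2.7% with length offsets. Of 47 assembly factors, which build the complexes, 10 were lower and 0 higher in KOCKD + RNLS against KOCKD, the median of the list being -0.26 on the log2 scale, and with length offsets 0 were called. Tmem242 and Cox20 had the largest falls, with -0.55 and -0.52 (SE 0.13 and 0.12, adjusted p = 0.0105 and 0.00846), and with offsets -0.25 and -0.25. Among 11 electron carriers and linked proteins 4 were lower, and Slc25a5, an ADP/ATP carrier, and Cycs, cytochrome c, had -0.53 and -0.45 (SE 0.11 and 0.12, adjusted p = 0.00560 and 0.0210). With offsets 2 of the 11 were lower, Slc25a5 shrank to -0.28 (SE 0.075, adjusted p = 0.0394), and Cycs lost its call at a similar log2 fold change of -0.41 (SE 0.12, adjusted p = 0.0501). Of 14 other enzymes of the citric acid cycle 0 passed with edgeR, at a median log2 fold change of -0.075 and a median length of 2406.5 nt. Mitochondrial ribosomal genes were lower in 23 of 78 cases, with Mrpl55 at -0.82 (SE 0.15, adjusted p = 0.00301), and in 7 with offsets, where Mrpl55 had -0.53 (SE 0.11, adjusted p = 0.0160). Cytosolic ribosomal genes, which are short and have no part in respiration, were lower in 63 of 79 cases, with a median of -0.44, and in 5 with offsets. In WTCKD + RNLS against WTCKD, 1 assembly factor was higher, Coa7 (log2 fold change 0.51, SE 0.11, adjusted p = 0.0134), beside 2.19% of all genes. From the other 4 lists 0 genes were called. With offsets 2 assembly factors and 2 enzymes of the citric acid cycle were higher, beside 349 of all 13021 genes tested. In WTCKD against WTSHAM and in KOCKD against WTCKD 0 genes of these 5 lists passed. With offsets 1 cytosolic ribosomal gene was higher in WTCKD against WTSHAM, beside 0.868% of all genes.

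Regulators of the chain were also measured. Ppargc1a, the coactivator that drives mitochondrial biogenesis, was at 9.49, 8.50 and 7.71 in KOCKD and 10.3, 8.63 and 9.53 in KOCKD + RNLS (log2 fold change 0.15, SE 0.12, adjusted p = 0.454). The nuclear receptor Esrra was at 67.0, 74.6 and 65.5 and 57.3, 56.3 and 62.7 (log2 fold change -0.23, SE 0.089, adjusted p = 0.0857). Ppargc1b, Tfam, Nrf1 and Gabpa had log2 fold changes of 0.54, -0.16, 0.070 and 0.060, with adjusted p of 0.0721 and above. With length offsets these 4 had 0.25, -0.20, -0.27 and -0.053, and Ppargc1a and Esrra -0.21 and -0.12, with 0 called, so that the sign turned in Ppargc1a, Nrf1 and Gabpa. In the fit of all libraries without offsets or block, 0 of these 6 passed in the 4 pairwise comparisons with edgeR. DESeq2 called Ppargc1b in 3 of them, lower in WTCKD against WTSHAM (adjusted p = 0.0428) and higher with the virus in wild type and in the knockouts (adjusted p = 0.0318 and 0.0369). With length offsets Gabpa was lower in WTCKD + RNLS against WTCKD (adjusted p = 0.0498), beside 389 of all 13021 genes tested. Outside these 6, Nrip1 was lower there too with offsets (log2 fold change -0.49, SE 0.12, adjusted p = 0.0307). Of the 17 regulators 3 were higher and 1 lower in KOCKD + RNLS against KOCKD, where 9.05% of all genes were higher and 7.04% lower. With length offsets 0 were higher and 1 lower, beside 2.7% of all genes lower. The 1 lower was Gabpb1, at -0.37 (SE 0.12, adjusted p = 0.0452), and -0.50 (SE 0.12, adjusted p = 0.0302) with offsets. Without offsets its call held in 0 of 6 fits without 1 library. Nrip1 was among those higher, at 0.52 (SE 0.16, adjusted p = 0.0320), and had 0.16 (SE 0.12, adjusted p = 0.478) with offsets. Ppara, the receptor that controls fatty acid oxidation, was at 8.26, 9.32 and 7.89 and 12.4, 10.7 and 11.3 (log2 fold change 0.43, SE 0.11, adjusted p = 0.0152). In wild type it was at 9.26, 9.43 and 10.1 in WTCKD and 12.8, 12.6 and 15.6 in WTCKD + RNLS (log2 fold change 0.51, SE 0.11, adjusted p = 0.0138). The median length of the regulators was 5684 nt, at the other end of the length scale from the subunits, and with length offsets Ppara had a log2 fold change of 0.14 (SE 0.11, adjusted p = 0.525) in the knockouts and 0.44 (SE 0.11, adjusted p = 0.0336) in wild type.

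Markers of the cells and chambers in the tissue were read beside these values. Cardiomyocyte markers were abundant in every library. Of 13 such genes 2 were higher in KOCKD + RNLS against KOCKD and 0 lower, beside 9.05% of all genes higher. These were Myh6 (log2 fold change 0.52, SE 0.085, adjusted p = 0.00217) and Ryr2 (log2 fold change 0.34, SE 0.089, adjusted p = 0.0182). With length offsets Myh6 alone was called, beside 359 of all 13021 genes tested higher. Ryr2, a gene of 16951 nt, then had -0.015 (SE 0.079, adjusted p = 0.936). Summed over the 13 genes, the level was 66481, 74326 and 66004 in KOCKD and 66236, 64516 and 66993 in KOCKD + RNLS. In WTCKD + RNLS it was 68267, 83075 and 70459, and replicate 2, which was highest for the subunits, was highest here. Atrial markers differed widely between libraries of a group. Myl7, the atrial myosin light chain, had 153, 1032 and 4219 counts in WTSHAM, 4966, 5207 and 15 in WTCKD, 86, 9 and 1477 in WTCKD + RNLS, 607, 52 and 9994 in KOCKD and 4, 8 and 8 in KOCKD + RNLS. The summed level of the 9 atrial markers was 499, 144 and 2827 in KOCKD and 190.5, 348 and 165 in KOCKD + RNLS. Nppa was the most abundant of them in the mean over all libraries. Myl7 was above it in KOCKD replicate 3, WTCKD replicate 1 and WTSHAM replicate 3. Of the 8 atrial markers tested 3 were lower in KOCKD + RNLS, beside 7.04% of all genes. With length offsets 1 of the 8 was lower, beside 2.7% of all genes. Myl7 then had -8.51 (SE 2.68, adjusted p = 0.0742), against -8.95 without offsets. The calls of Myl7 and Sln without offsets held in 2 and 2 of 6 fits without 1 library, and the log2 fold change of Myl7 moved as far as -5.64. Sln had 113, 3 and 1652 counts in KOCKD and 1, 0 and 1 in KOCKD + RNLS, too few for a fold change.

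The summed level of the 9 adipocyte markers was 59.1, 27.8 and 46.3 in KOCKD and 35.7, 20.2 and 24.7 in KOCKD + RNLS. The most abundant was Cidea, which had 228 to 487 counts in every library. Car3 had 226, 3 and 90 counts in KOCKD and 84, 3 and 6 in KOCKD + RNLS, and Cfd 97, 0 and 173 and 75, 2 and 0. Ucp1, the uncoupling protein of brown fat, had 83, 0 and 0 and 2, 0 and 0, and Adipoq 39, 0 and 23 and 15, 0 and 0. Of 6 tested adipocyte genes 0 were called by edgeR between these 2 groups. Among the 9 skeletal muscle markers Acta1 was the most abundant, with levels from 50.6 to 1107 between libraries, while Myh1, Myh2 and Myh4 had at most 2 counts in any library. Pvalb, with at most 48 counts, was higher in WTCKD + RNLS against WTCKD (log2 fold change 4.25, SE 1.03, adjusted p = 0.0278), in 2 of 6 fits without 1 library. In KOCKD + RNLS against KOCKD 3 of 10 fibroblast markers, 2 of 9 endothelial markers and 2 of 9 macrophage markers were lower, beside 7.04% of all genes, and with length offsets 2, 1 and 0, beside 2.7%. In WTCKD + RNLS against WTCKD 4 fibroblast and 4 endothelial markers were lower, beside 2.28% of all genes. With offsets these numbered 3 and 5, beside 389 of all 13021 genes tested. The summed level of the fibroblast markers was 1033, 767 and 796 in KOCKD and 901, 831 and 798 in KOCKD + RNLS, and these overlapped, although Col3a1 and Col1a1 were lower (log2 fold change -1.58 and -1.10, SE 0.24 and 0.26, adjusted p = 0.00161 and 0.0124). The summed level of the macrophage markers was 314, 324 and 274 in KOCKD and 236, 177 and 191 in KOCKD + RNLS, and that of the endothelial markers 1131, 1453 and 1208 and 965, 971 and 948. Of 5 red cell genes 0 were called in the knockouts, and Hbb-bs was higher in WTCKD + RNLS against WTCKD (log2 fold change 2.72, SE 0.75, adjusted p = 0.0494), a call that held in 0 of 6 fits without 1 library. Of 14 clock genes 8 were higher and 2 lower in KOCKD + RNLS against KOCKD, beside 9.05% and 7.04% of all genes. In WTCKD + RNLS against WTCKD 8 were higher and 3 lower, beside 2.19% and 2.28% of all genes. With length offsets the higher ones numbered 4 in the knockouts and 8 in wild type, beside 359 and 349 of all 13021 genes tested. The median of the list in the knockouts was 0.97 without and 0.90 with offsets. Arntl, a core clock activator, fell in both, with log2 fold changes of -3.66 (SE 0.49, adjusted p = 0.000971) and -4.06 (SE 0.46, adjusted p = 0.000329). The part of cell make-up, chamber and hour of collection in the levels of the subunits was not tested.

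The members are spread over the genome. In the GENCODE annotation of the mm9 assembly, 82 of the 86 had a single position, on 19 chromosomes, with 8 on chromosome 7 and 3 on X. Atp5e lies at chr2:174286573-174289606, Ndufc1 at chr3:51208599-51212910, Ndufb2 at chr6:39542573-39553381, Cox8b at chr7:148084842-148086345 and Cox5a at chr9:57369039-57380231 (mm9, protein-coding genes). The members just listed thus lie on different chromosomes, but others called lower share a chromosome, as Ndufb2 and Ndufa4 do on chromosome 6.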

How the data were processed

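Gene counts of 15 mouse heart libraries, 10480788 to 13424078 per library, were used as deposited. The authors trimmed reads with Trimmomatic, aligned them with HISAT2 and obtained the counts with htseq-count, and the deposited FPKM were made by the authors with Cufflinks per the study's methods. Versions were not given, the methods name mm9 and the labels GRCm39, and neither the sequencer of each library nor the strand setting was stated. Gene length was recovered from the ratio of counts to FPKM. Counts were scaled by TMM and tested with edgeR 4.0.16 (limma 3.58.1, R 4.3.3), using filterByExpr, 1 fit of all libraries on group, quasi-likelihood contrasts and Benjamini-Hochberg adjustment over all genes tested. Genes were called at an adjusted p under 0.05. Alternatives were DESeq2 1.42.0, RLE factors, no filter, a replicate block, the libraries compared only, length offsets (lowess, span 0.3), TMM from genes of member length, the study's threshold and leaving out each library. A further length offset and a fit without 2 libraries were chosen after seeing the data. Genes named are the largest changes past the threshold without overlap, the most abundant, longest and shortest of each complex, complex II, isoform pairs, Cox7a2l, Ndufa4, 6 regulators and at most 2 calls in each direction of each other list. Ndufa12, the members with the lowest levels and the markers given as counts were chosen for naming once their values had been seen. The list of members and the other lists were chosen with earlier results of these data known. No 2 libraries of a group were copies of each other. Tables and figures used Python 3.11.15, pandas 2.3.3 and matplotlib 3.10.9. Separate values are reported here for only some of the 86 members.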

Additional observations from a re-analysis of the deposited data

How the results depend on the processing

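In KOCKD + RNLS against KOCKD, 49 members were lower in the fit reported. The count was 47 with RLE factors, 59 with DESeq2, 71 with only the libraries compared and 42 with no filter, beside 871, 1045, 1459 and 738 lower over all genes. With length offsets it was 1 (median -0.011), with offsets estimated without members and ribosomal genes, chosen after seeing the data, 1 (-0.017), and with TMM from genes of member length 13 (-0.088). That TMM also turned the calls over all genes from 1178 higher and 917 lower to 3743 and 195. With offsets 41 of the 86 log2 fold changes were above 0, against 1 without, and of the named members called lower the sign turned in Uqcrh (0.069 and 0.065), Uqcr11 (0.11 and 0.11) and Cox7a1 (0.055 and 0.052). That TMM moved the median of all genes by 0.26, and Atp5a1 (0.19), Atp5b (0.15), Uqcrc2 (0.11) and other named members with small falls came to lie above 0 with it. Without 1 library the count ran from 7 to 48 and the median from -0.41 to -0.30.

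In WTCKD against WTSHAM the count of 0 became 1 with DESeq2, 1 with offsets, 1 with the later offsets, 2 without the 2 libraries of steepest length trend, also chosen after seeing the data, and 2 by the study's threshold. Over all genes the first 4 of these fits called 211 and 366, 113 and 217, 117 and 220, and 165 and 389 genes higher and lower. In WTCKD + RNLS against WTCKD it became 1 with DESeq2, beside 453 and 423 over all genes, and 1 by the study's threshold. In KOCKD against WTCKD it became 7 by that threshold, and the median moved to 0.018 and 0.017 with the 2 offsets and 0.060 with TMM by length. For the difference of effects DESeq2 called 39, beside 140 and 234 over all genes, and the study's threshold 69, and the median moved to -0.081 and -0.089 with offsets, -0.18 with TMM by length and -0.25 without the 2 libraries. Without 1 library the counts stayed at 0 in these 4 comparisons, and medians ran from 0.065 to 0.15, -0.044 to 0.20, 0.13 to 0.25 and -0.55 to -0.30. The cause was not tested.

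Same-numbered libraries of different groups correlated between -0.36 and 0.33. Without differently numbered pairs beside them, these values do not settle whether replicate numbers pair the samples. With the replicate number as a block the counts were 0, 1, 40, 0 and 0 in the order WTCKD against WTSHAM, WTCKD + RNLS against WTCKD, KOCKD + RNLS against KOCKD, KOCKD against WTCKD and the difference. Over all genes 56 and 197, 245 and 277, 1118 and 791, 1 and 0, and 0 and 0 were higher and lower. With the block Ppargc1a was called in WTCKD + RNLS against WTCKD (adjusted p = 0.0481) and Ppargc1b in KOCKD + RNLS against KOCKD (0.0365). Calls lost with it included Hbb-bs in the wild type (adjusted p = 0.0656) and Sln in KOCKD + RNLS against KOCKD (0.0628).

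There were 3 mice in each group. Length offsets remove any difference that follows gene length, whatever its source. Lengths are those of the annotation and not of the transcripts present. The sequencer of each library is unknown, and cell make-up, chamber and hour of collection were not controlled.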
